A study of Mus musculus with 6 samples.

Results

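Matricellular proteins are secreted into the extracellular matrix to signal to cells rather than to bear load, and 10 of their genes were examined here in the hind leg muscle of trained and untrained mice. They are Spp1, which encodes osteopontin, with Sparc, Postn, Tnc, Thbs1, Thbs2, Thbs4, Ccn1, Ccn2 and Tgfbi. The genes were picked by symbol out of the 16759 genes in the expression table, and all 10 were found there. The choice names Spp1 as the strongly reduced gene of the group, so the lower Spp1 count after training is given as a description with no test. The other 9 genes were listed for their protein family, but with earlier results of these data known.

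The series asked what moderate-intensity exercise does to muscle tissue. RNA was sequenced from male C57BL/6J mice, aged 8 weeks at the start, with 1 library per mouse and 3 mice in each group. The EX mice ran on a treadmill in daily 60 min sessions, 5 per week, over 6 weeks, with a running distance of 22 km, and their tissue was taken 24 h after training ended. The Con mice had no treadmill training. The methods, which give the time of killing for EX mice only, describe perfusion with phosphate-buffered saline and removal of the fat between the muscles, and the labels name hind leg muscles without saying which.

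Osteopontin is an acidic phosphoprotein that binds integrins and CD44. It is made by osteoblasts, by macrophages in injured tissue and by other cells, and in skeletal muscle it is best known for its induction after injury and in dystrophy. SPARC binds collagen and calcium, tenascin-C and the thrombospondins modulate adhesion, periostin and the TGFBI protein share fasciclin domains, and the CCN proteins bind integrins and heparan sulphate.

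Total estimated counts ran from 13845362 to 15585048 for Con and from 16080487 to 16240431 for EX. Transcripts of muscle fibres were abundant in every library, and 8 of their genes together gave 189791 to 196516 TPM (a level per transcript length, scaled to the same total in each library) in Con and 200389 to 203508 TPM in EX. The 10 genes took 0.0524% to 0.0538% of all counts in Con and 0.0624% to 0.0629% in EX.

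The sequence just before the transcript start is shown for 5 genes, to set the promoter of Spp1 beside that of its chromosomal neighbour Ibsp, whose transcript was also scarcer in EX, and beside those of 3 other genes of the group, Tnc, Thbs4 and Ccn1. Tnc and Thbs4 transcripts were more abundant in EX, and those of Ccn1 did not pass the test. Each run is 250 bases from RefSeq on build GRCm38.p6 and ends at the base before the start of the transcript. Spp1 and Tnc each have a second annotated start, whose window is not shown. The Spp1 window is chr5:104434861-104435110 on the plus strand, Ibsp is chr5:104299037-104299286 on the plus strand, Tnc is chr4:64047016-64047265 on the minus strand, Thbs4 is chr13:92794819-92795068 on the minus strand and Ccn1 is chr3:145649986-145650235 on the minus strand. Capitals mark matches, on either strand, to TATAAA (the core that TBP binds), CCAAT (the NF-Y site), GGGCGG (a GC box), TGTGGT (a RUNX core) and GGAATG (a TEAD core).
Spp1: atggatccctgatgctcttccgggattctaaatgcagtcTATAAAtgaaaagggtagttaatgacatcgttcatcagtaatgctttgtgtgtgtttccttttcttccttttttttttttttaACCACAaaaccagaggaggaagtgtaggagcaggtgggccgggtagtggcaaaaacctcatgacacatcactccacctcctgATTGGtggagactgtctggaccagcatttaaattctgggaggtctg
Ibsp: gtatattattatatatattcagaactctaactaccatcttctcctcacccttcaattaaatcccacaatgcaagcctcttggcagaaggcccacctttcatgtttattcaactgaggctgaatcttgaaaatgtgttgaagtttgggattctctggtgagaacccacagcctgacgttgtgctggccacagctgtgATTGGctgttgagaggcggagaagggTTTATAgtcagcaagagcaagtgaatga
Tnc: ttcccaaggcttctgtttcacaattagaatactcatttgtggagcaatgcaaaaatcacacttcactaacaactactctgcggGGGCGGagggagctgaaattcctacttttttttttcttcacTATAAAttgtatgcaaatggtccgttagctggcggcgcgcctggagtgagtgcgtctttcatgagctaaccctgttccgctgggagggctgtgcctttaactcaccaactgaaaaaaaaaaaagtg
Thbs4: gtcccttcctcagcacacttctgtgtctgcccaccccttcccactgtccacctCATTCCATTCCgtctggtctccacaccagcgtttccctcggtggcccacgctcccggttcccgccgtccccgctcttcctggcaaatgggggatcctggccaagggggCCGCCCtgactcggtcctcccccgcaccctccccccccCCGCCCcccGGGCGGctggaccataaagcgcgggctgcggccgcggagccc
Ccn1: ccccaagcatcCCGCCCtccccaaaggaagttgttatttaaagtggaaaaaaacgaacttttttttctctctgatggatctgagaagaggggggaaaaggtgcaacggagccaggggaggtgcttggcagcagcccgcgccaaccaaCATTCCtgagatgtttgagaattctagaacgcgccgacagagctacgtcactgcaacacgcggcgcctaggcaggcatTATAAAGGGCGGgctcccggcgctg

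The Spp1 window shown held TATAAA beginning at -211, counted back from the transcript start. It also held the reverse complement of TGTGGT at -128 and that of CCAAT at -46. The window at the second Spp1 start held none of these 3. In the Ibsp window the reverse complement of CCAAT lay at -54 and that of TATAAA at -28. Matches were also found at Dmp1 and Mepe, further neighbours of Spp1. The reverse complement of CCAAT lay at -101 and -57 in the Dmp1 windows and at -21 in that of Mepe. That of TGTGGT lay at -164 in a Dmp1 window and at -118 in that of Mepe. Dmp1 counts overlapped between Con and EX. The Ccn1 window held TATAAA at -25 with GGGCGG directly after it at -19. The Thbs4 window had no TATAAA and 3 matches to GGGCGG, and 70.8% of its bases were G or C, against 43.6% in Spp1 and in Ibsp.

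Windows were analysed for 8 of the 10 genes, all but Thbs1 and Ccn2. The 8 genes have 11 windows, because Spp1, Postn and Tnc have more than 1 annotated start, and the shares below are per window. TATAAA was found in 6 of the 11 windows (54.5%, in Spp1, Postn, Tnc, Thbs2 and Ccn1) and in 12.4% of 32851 windows of the same length over all genes. The 2 Tnc windows overlap by 171 bases and hold the same TATAAA and GGGCGG sites, and with Tnc counted once these are 5 and 4 of 10 windows. GGGCGG was in 5 of the 11 (Tnc, Thbs4, Ccn1 and Tgfbi) and in 32.7% of all windows, and CCAAT was in 2 (Spp1 and Thbs2) and in 33.8%. TGTGGT occurred in 1 of the 11, that of Spp1 shown, and in 14% of all windows. GGAATG was in 2 (Thbs4 and Ccn1) and in 12.6%, and CANNTG (an E-box, not capitalised, which can overlap other motifs) was in 7 and in 66.2%. Neither TGANTCA (an AP-1 site, 6.75% of windows) nor the CArG box of serum response factor (1.47%) was found in any of the 11. These are matches of letters, which say nothing of whether a factor was bound.

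Spp1 (gene ID 20750) had 69, 72 and 84 counts in Con replicates 1 to 3 and 17, 28 and 23 counts in EX replicates 1 to 3. The lowest Con library held more Spp1 counts than the highest EX library, so the groups did not overlap. In CPM (counts relative to the library total, scaled for its composition), Spp1 went from 4.93 ± 0.344 (SD, n = 3) in Con to 1.44 ± 0.356 (SD, n = 3) in EX, which is 29.2% of the Con level. The log2 fold change was -1.77 (SE 0.19), with no test because this difference was part of the choice. Summed over mice, 225 Con counts stood against 68 EX counts. In bulk tissue, fewer cells of a type and less RNA per cell cannot be told apart.

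Among the 10883 genes tested (those with a mean of at least 1 FPKM, fragments scaled for transcript length and depth), Spp1 had the second lowest log2 fold change, and the gene below it, Gdf1, had a log2 fold change of -1.78 (SE 0.73) with groups that overlapped. That of Gdf1 rested on 1 library, since it was 3.26 without Con replicate 2. The rank of Spp1 only describes the difference that the choice used, and it holds only above the filter. Under the filter, Ibsp was at -4.76 and the cartilage gene Clec3a at -4.54 in a fit without it. For every 100 Sparc counts Con libraries held 1.53 to 1.81 Spp1 counts, and EX libraries 0.300 to 0.479.

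**Figure D1:**
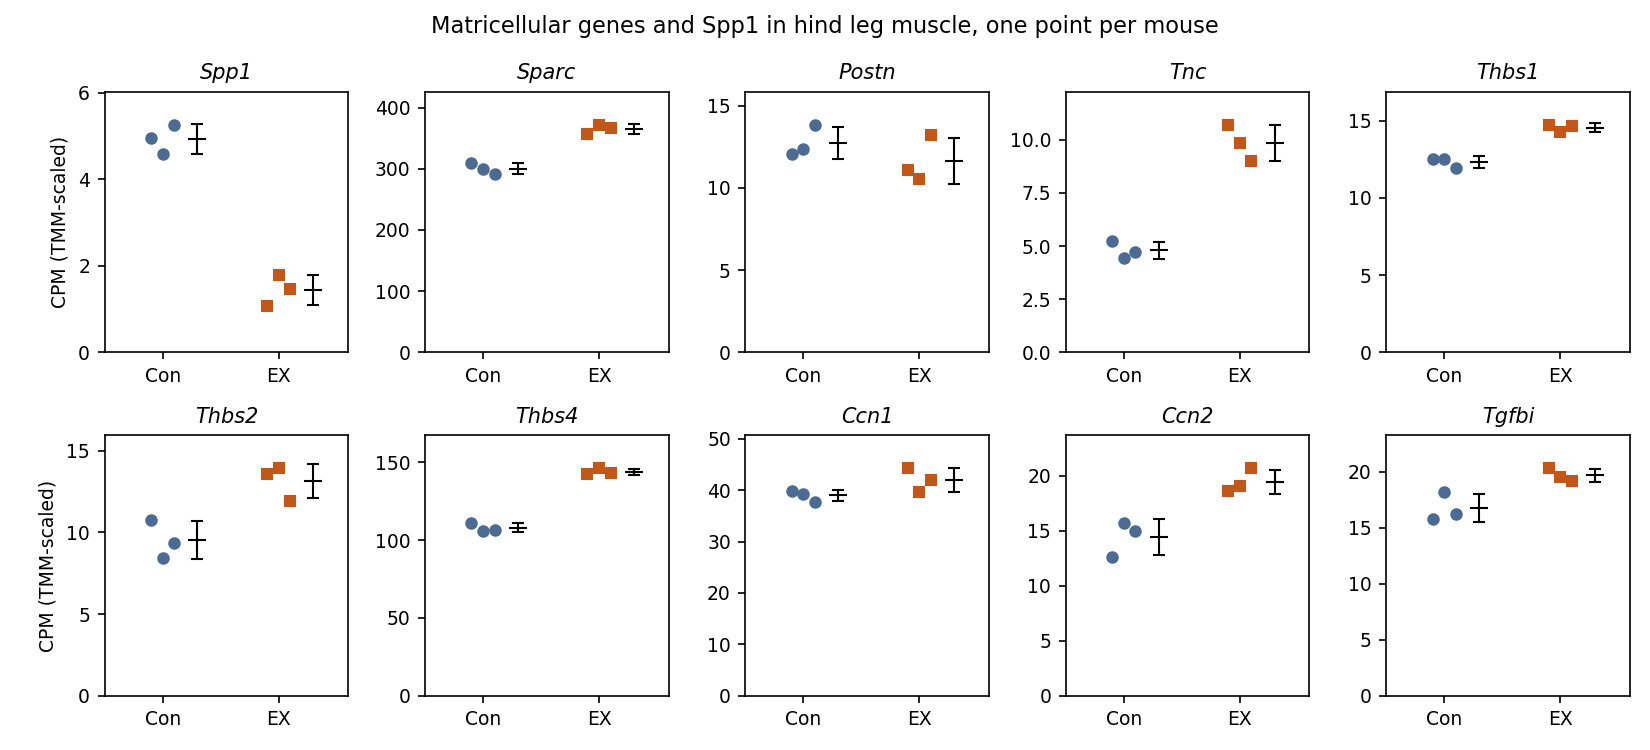
CPM (vertical axis, from 0, TMM-scaled) of each of the 10 genes in Con (circles) and EX (squares), with 1 point per mouse and the mean ± SD of 3 mice as the bar beside them. The 3 EX points of Spp1 lie below its 3 Con points, those of Postn and Ccn1 overlap between the groups, and those of the other 7 genes lie above Con.

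Spp1 belongs to a family of acidic mineralised matrix genes that stand side by side on mouse chromosome 5, in the RefSeq order Sparcl1, Dspp, Dmp1, Ibsp, Mepe and Spp1, followed by Pkd2. Ibsp, which encodes bone sialoprotein, had 26, 32 and 30 counts in Con against 0, 1 and 2 in EX. The groups were far apart, with 88 counts against 3, a Con to EX ratio of 30.4 (exact 95% interval for counting error 10.1 to 150.3). Ibsp lies under the filter on low values, and in a fit without that filter edgeR's quasi-likelihood test gave an adjusted p of 1.69e-10. Over the 16716 genes of the unfiltered fit, 12.0% passed the threshold of an adjusted p under 0.05, with 6.08% higher and 5.96% lower in EX.

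Dmp1, a gene of osteocytes and tooth matrix, had 4, 7 and 6 counts in Con against 6, 7 and 8 in EX, so the groups overlapped and the counts were close to the floor of 3. Transcript levels of Mepe and Dspp were not analysed here. Sparcl1, the SPARC relative at the edge of the cluster, fell by 0.16 on the log2 scale (SE 0.05, adjusted p = 0.0144). Without Con replicate 1 its adjusted p was 0.0739, and without EX replicate 3 it was 0.0948. Pkd2, which encodes an ion channel, adjoins Spp1 on the other side and was added after its values were seen. It fell by 0.22 on the log2 scale (SE 0.06, adjusted p = 0.0124), and without EX replicate 3 its adjusted p was 0.0855.

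The 5 tested genes whose profile over the 6 libraries was most like that of Spp1 were BC048679, Cyp3a11, Pzp, Myl10 and Xlr3b. Likeness was the root mean square difference of log2 CPM centred on the Con mean, and it ranged from 0.356 for BC048679 to 0.449 for Xlr3b. BC048679 had 65, 60 and 63 counts in Con against 21, 19 and 30 in EX. Cyp3a11, a cytochrome P450 gene best known from liver, had 67, 89 and 69 counts in Con against 30, 34 and 28 in EX. Pzp encodes a protease inhibitor and had 97, 100 and 112 counts in Con against 46, 44 and 45 in EX, and it met the filter only through Con (1.58 FPKM, against 0.64 FPKM in EX). Myl10, a myosin light chain gene, ranged from 25 to 30 counts in Con and from 7 to 16 in EX. The counts of Xlr3b were not whole numbers, so its reads may be shared with near-identical copies, and its level is uncertain. All 5 were lower in each EX library than in every Con library, which the measure of likeness itself selects.

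Compared per transcript length, Sparc was the most abundant of the 10 genes in both groups, at 233.0 ± 5.03 TPM in Con and 266.7 ± 2.39 TPM in EX (SD, n = 3). Thbs4 followed at 55.4 TPM in Con and 69.3 TPM in EX, and Ccn1 at 33.8 and 34.2 TPM. Sparc and Thbs4 together made up 79.1% to 80.1% of the TPM of the 10 genes in Con and 81.1% to 82.4% in EX. In Con, Tgfbi and Ccn2 (both 10.3 TPM) could not be ordered because their ranges overlapped, nor could Spp1 (6.63 TPM) and Postn (6.37 TPM). Below them came Thbs1 at 3.30, Thbs2 at 2.51 and Tnc at 1.30 TPM.

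In EX no neighbouring ranges overlapped. The order below Ccn1 was Ccn2 at 13.0, Tgfbi at 11.4, Postn at 5.52, Thbs1 at 3.65, Thbs2 at 3.25, Tnc at 2.54 and Spp1 at 1.80 TPM. Spp1 thus stood level with Postn in Con and last in EX, and Tnc left the last place.

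**Figure D2:**
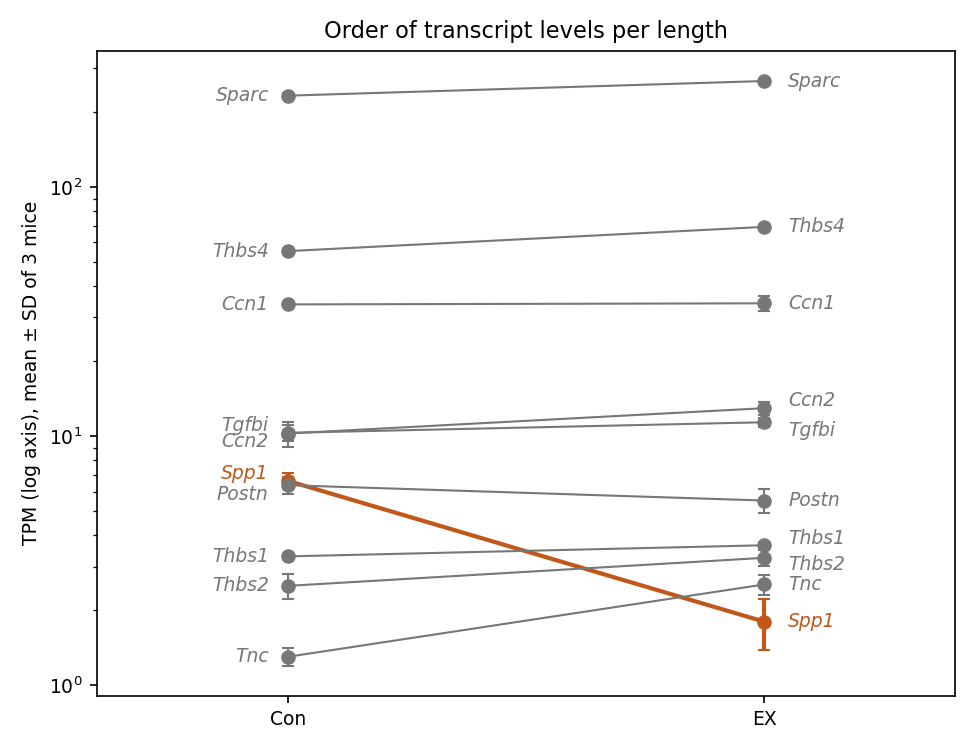
Level of the 10 genes in TPM (vertical log axis, mean ± SD of 3 mice) in Con and EX, with a line joining the means of each gene. Spp1 (coloured line) passes from 6.63 TPM, level with Postn, to 1.80 TPM, the lowest level in EX, while Sparc stays above 230 TPM.

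The remaining 9 genes were tested in edgeR by its quasi-likelihood method, and p-values were adjusted over all 10883 genes tested. Of the 9, 7 passed an adjusted p of 0.05, all of them higher in EX, and 2 did not pass. The number was 4 in each of the 3 limma fits and 3 with a filter of 5 FPKM, which left fewer of them to test. Over all genes tested 17.9% passed in either direction, with 9.11% higher and 8.80% lower in EX. The CPM ranges of the same 7 genes did not overlap between the groups, as was so for 33.7% of all genes tested and, with EX higher, for 16.7%. The median log2 fold change of the 9 genes was 0.28, against -0.00093 over all genes tested. Nothing further is read from these counts, since the list was drawn up with this comparison known.

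Tnc, which encodes tenascin-C of tendon and of the junction between tendon and muscle, had the largest fold among the 9. It had 73, 70 and 75 counts in Con (gene ID 21923) against 170, 155 and 142 in EX. Every EX library held more Tnc counts than any Con library, and CPM rose from 4.80 ± 0.400 to 9.87 ± 0.853 (SD, n = 3). The log2 fold change was 1.04 (SE 0.12, adjusted p = 3.47e-07). Tnc met the filter of 1 FPKM only through EX, with a mean of 0.893 FPKM in Con and 1.79 FPKM in EX, and in the fit without a filter its log2 fold change was 1.04 with an adjusted p of 6.94e-09.

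Sparc (gene ID 20692), whose product binds collagen and takes part in fibril assembly, had 4316, 4712 and 4644 counts in Con against 5660, 5849 and 5779 in EX. All EX libraries were higher. Sparc rose from 300.2 ± 9.18 to 365.5 ± 7.82 CPM (SD, n = 3), a log2 fold change of 0.28 (SE 0.04, adjusted p = 1.72e-06). Its counting error was the smallest of the group, 1.48% in Con against a coefficient of variation of 3.06% between mice. For other genes the Con coefficient of variation lay under the counting error. These were Spp1 (6.98% against 11.5%), Tnc (8.34% against 11.7%), Thbs1 (2.94% against 7.31%) and Ccn1 (2.83% against 4.11%). For the rest of the 10 genes it lay above.

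Postn (gene ID 50706) and Tgfbi (gene ID 21810) encode related fasciclin-domain proteins, and Tgfbi is named for its induction by TGF-beta. For Postn there were 168, 194 and 221 counts in Con against 176, 166 and 208 in EX, which overlapped. The log2 fold change of Postn was -0.14 (SE 0.10, adjusted p = 0.372). Tgfbi counts were 220, 285 and 259 in Con against 322, 306 and 302 in EX, with every EX library above every Con library. The log2 fold change of Tgfbi was 0.23 (SE 0.08, adjusted p = 0.0337), and this call was lost without any single library (adjusted p from 0.0604 to 0.112) other than Con replicate 2, without which the adjusted p was 0.0235.

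The thrombospondins divide into trimers that act on vessels (Thbs1 and Thbs2) and pentamers of the musculoskeletal matrix, among them Thbs4. Thbs4 (gene ID 21828) had 1551, 1668 and 1697 counts in Con against 2261, 2299 and 2250 in EX. Its ranges were widely separated, and it rose from 107.9 ± 2.89 to 144.0 ± 2.11 CPM (SD, n = 3), a log2 fold change of 0.42 (SE 0.04, adjusted p = 1.81e-08).

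Thbs2 (gene ID 21826) counts were 150, 133 and 149 in Con against 215, 219 and 188 in EX. Again the groups did not overlap, and the log2 fold change was 0.47 (SE 0.10, adjusted p = 0.00137). In the 3 limma fits Thbs2 did not pass, with an adjusted p of up to 0.0624. Thbs1 (gene ID 21825) counts were 175, 197 and 190 in Con against 234, 224 and 231 in EX, also without overlap. With a log2 fold change of 0.24 (SE 0.08) Thbs1 passed narrowly, at an adjusted p of 0.045, and it no longer passed when any 1 of the 6 libraries was left out, with adjusted p-values up to 0.138.

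Ccn1 and Ccn2 encode the CCN proteins once called CYR61 and CTGF, and both are standard targets of YAP and of mechanical load. Ccn2 (gene ID 14219) had 176, 247 and 239 counts in Con against 295, 300 and 326 in EX. Con replicate 1 was the lowest, and its distance from the other Con libraries gave a coefficient of variation of 11.2% against a counting error of 6.73%. The EX libraries all lay above Con, with a log2 fold change of 0.42 (SE 0.08, adjusted p = 5.49e-04).

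Ccn1 (gene ID 16007) had 557, 619 and 603 counts in Con against 703, 624 and 662 in EX. Its CPM ranges overlapped, with means of 39.1 in Con and 42.0 in EX, and the log2 fold change of 0.11 (SE 0.06) did not pass (adjusted p = 0.195). The difference between Ccn1 and Ccn2 in their response was not tested.

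**Figure D3:**
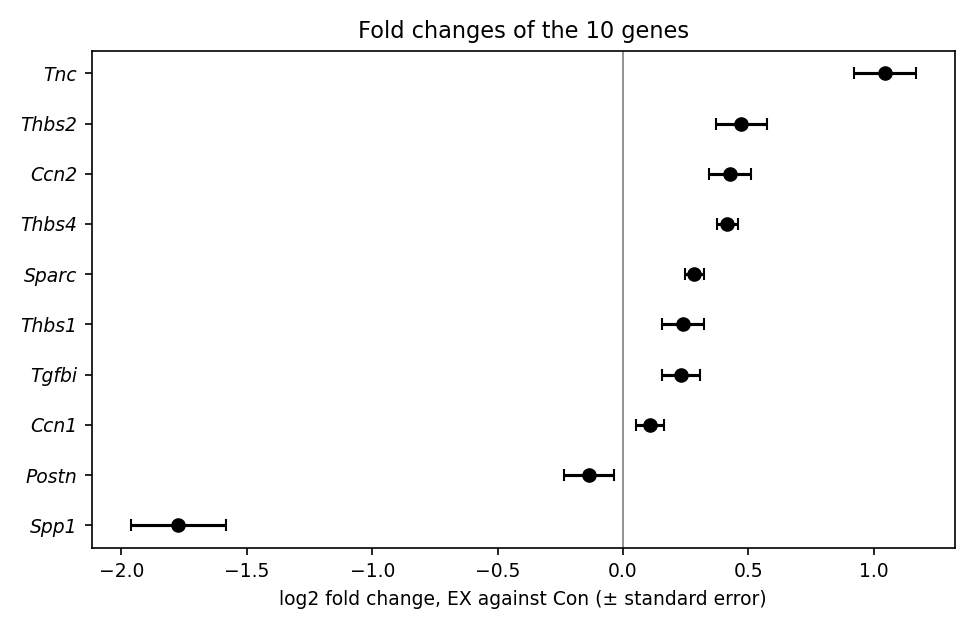
Fitted log2 fold change of EX against Con (horizontal axis, ± SE from the fit on 3 against 3 mice) for the 10 genes, ordered from lowest to highest. Spp1 lies at -1.77, Postn at -0.14 and the other 8 between 0.11 (Ccn1) and 1.04 (Tnc).

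Further genes of the same protein class were examined as a list of 17, of which 10 lay above the filter. Of these 10, 2 rose, 1 fell and 7 did not pass, with a median log2 fold change of 0.07. In the 3 limma fits and with the filter of 5 FPKM, 1 rose and 1 fell. Ccn5, the CCN family member that lacks the C-terminal domain, rose by 1.04 on the log2 scale (SE 0.23, adjusted p = 0.00181), from 17, 18 and 15 counts to 35, 32 and 40. It too met the filter only through EX (0.77 FPKM in Con, 1.52 FPKM in EX), and without the filter its adjusted p was 0.00142. Fstl1, a secreted SPARC-related glycoprotein gene, rose by 0.25 (SE 0.05, adjusted p = 0.00105), and Sparcl1 was the gene that fell.

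Receptors of these proteins gave a mixed picture, with 3 of 13 higher, 1 lower and 9 not passing. The balance was 2 higher and 2 lower in the 3 limma fits and without Con replicate 3, and 1 higher and 2 lower with the filter of 5 FPKM. Itga4 encodes the integrin alpha 4 chain, a receptor of osteopontin and of the thrombospondins on leukocytes, and it had 324, 328 and 346 counts in Con against 534, 459 and 472 in EX. It rose by 0.50 on the log2 scale (SE 0.07, adjusted p = 4.95e-06), with no overlap of the groups. Sdc4, the heparan sulphate proteoglycan syndecan-4, rose by 0.37 (SE 0.06, adjusted p = 1.06e-04). Itgav, the alpha V integrin chain that binds the RGD sequence of osteopontin, rose by 0.22 (SE 0.07, adjusted p = 0.0225), a call lost without Con replicate 3 (adjusted p = 0.0727) and without EX replicate 1 (adjusted p = 0.174). Cd36 was the receptor gene that fell, with a log2 fold change of -0.15 (SE 0.04, adjusted p = 0.00428). Without EX replicate 3 no gene of the list was called lower. Cd44 and the beta chains on the list did not pass.

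In the TGF-beta list, none of 17 tested genes rose, 2 fell and 15 did not pass, while without Con replicate 2 there was 1 in each direction. Ltbp4, which encodes a protein that holds latent TGF-beta in the matrix, fell by 0.38 on the log2 scale (SE 0.04, adjusted p = 1.24e-07). Smad4, the shared signal transducer of the pathway, fell by 0.13 (SE 0.04), and its adjusted p of 0.0483 passed the threshold narrowly. Leaving out Con replicate 2, Con replicate 3, EX replicate 2 or EX replicate 3 raised the adjusted p of Smad4 above the threshold, to at most 0.187.

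Of the 13 YAP and TEAD genes, 2 rose and 11 did not pass. With totals that left out the 20 most abundant genes, and with limma on log2(TPM + 0.1), 1 of them rose and 2 fell. Amotl2, which encodes a YAP-binding angiomotin and is also a YAP target, rose by 0.39 (SE 0.06, adjusted p = 2.96e-05) on the log2 scale. The kinase gene Lats2 rose by 0.18 (SE 0.06, adjusted p = 0.025), and lost this call without Con replicate 2, Con replicate 3, EX replicate 1 or EX replicate 2, with an adjusted p of at most 0.126.

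Immediate early genes, transcription factors and regulators that respond within minutes to stimuli, moved in both directions, with 6 of 15 higher, 5 lower and 4 not passing. The Kruppel-like factor gene Klf4 rose by 0.67 (SE 0.07, adjusted p = 2.72e-08) and Atf3 by 0.64 (SE 0.16, adjusted p = 0.00506). Btg2, an antiproliferative gene, fell by 0.54 (SE 0.06, adjusted p = 9.52e-08).

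Among the proteases that cut matricellular proteins, 4 of 10 rose and none fell, while with limma on log2(TPM + 0.1) there was 1 in each direction and without Con replicate 3 there were 2 higher and 1 lower. Mmp2, a gelatinase gene, rose by 0.39 (SE 0.06, adjusted p = 8.27e-06) and Mmp14, its membrane-bound activator, by 0.31 (SE 0.07, adjusted p = 0.00204). Ctsk, the collagen-cutting cathepsin of osteoclasts and fibroblasts, rose by 0.42 (SE 0.12, adjusted p = 0.0184). Its call was lost without Con replicate 2, Con replicate 3, EX replicate 1 or EX replicate 3, with an adjusted p of at most 0.116, and the list had 2 calls when Con replicate 2 or either of EX replicates 1 and 3 was left out. Mmp7 was not analysed here.

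**Figure D4:**
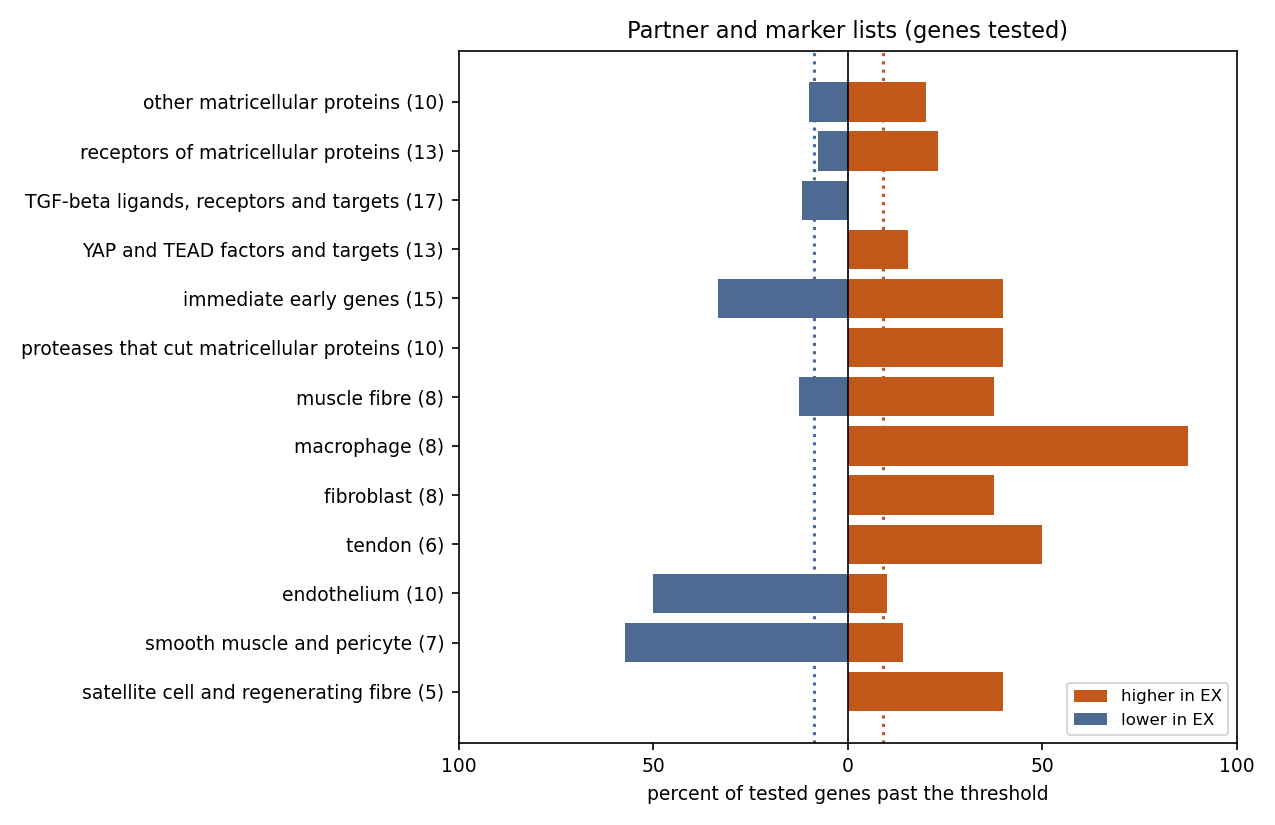
Percent of tested genes (horizontal axis) that passed an adjusted p of 0.05, higher in EX to the right and lower to the left, for each list of partner and marker genes with at least 5 genes tested, whose number stands in brackets. The dotted lines mark the shares over all genes tested, 9.11% higher and 8.80% lower, and the macrophage list reaches farthest right with 7 of 8.

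Markers of other cell types were read beside these results. Of the 12 bone markers 9 were analysed, all but Bglap, Bglap2 and Mepe, and their summed level was 17.5 to 19.3 TPM in Con and no more than 14.9 TPM in EX. The 1 bone marker above the filter, the alkaline phosphatase gene Alpl, gave most of that sum, with 334, 330 and 340 counts in Con against 278, 315 and 328 in EX. Its log2 fold change of -0.18 did not pass (adjusted p = 0.111), though it did with limma on log2(TPM + 0.1), and of the 8 under it Ibsp alone passed. Of the cartilage markers 12 of 13 were analysed, with sums of 17.7 to 22.9 TPM in Con and 15.9 to 16.5 TPM in EX, and neither of the 2 above the filter passed.

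Below the filter 3 cartilage markers were lower in EX and 1 was higher. Clec3a, a cartilage lectin gene, had 26, 44 and 51 counts in Con against 3, 0 and 2 in EX, a Con to EX ratio of 25.1 (exact 95% interval for counting error 10.5 to 78.7). Col2a1, the main collagen gene of cartilage, had 31, 24 and 26 counts against 6, 5 and 4, a ratio of 5.60 (3.20 to 10.5). Both genes, picked after their values were seen, were lower in each EX library than in every Con library. The rest of the list was mixed. Acan, the aggrecan gene, had 4, 1 and 5 counts against 0, 0 and 1 and did not pass (adjusted p = 0.0956). Col9a1, a collagen gene of cartilage, had 24, 21 and 25 counts in Con against 51, 37 and 30 in EX (adjusted p = 0.0303 in the unfiltered fit), and it passed in 1 of the 6 fits that left out a library, with adjusted p up to 0.266. Sox9, the transcription factor gene of chondrocytes, overlapped between groups at 21, 19 and 33 counts against 29, 39 and 39. The third marker that was lower, Col10a1, had 5, 2 and 7 counts against 0, 1 and 0, and likewise passed in 1 of those 6 fits. The part of bone or cartilage RNA in the Spp1 difference was not tested.

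Macrophage markers were read as a further list. Of the 8 macrophage markers above the filter 7 rose and 1 did not pass, with a median log2 fold change of 0.87, and 1 of the 7, Gpnmb, met the filter only through EX. The sum of all 12 markers was 66.1 to 69.9 TPM in Con and 115.2 to 122.8 TPM in EX. Csf1r, the receptor on which macrophages depend, had 86, 79 and 77 counts in Con against 158, 169 and 151 in EX and rose by 0.93 on the log2 scale (SE 0.12, adjusted p = 1.78e-06).

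The complement genes C1qc and C1qb rose by 1.26 (SE 0.15, adjusted p = 5.34e-07) and 1.03 (SE 0.13, adjusted p = 1.63e-06). Trem2, a lipid receptor gene of macrophages, lies under the filter and had 1, 3 and 2 counts in Con against 9, 8 and 13 in EX, and without EX replicate 3 its adjusted p was 0.0796. Cd14 overlapped between the groups. The part of macrophages in the Spp1 difference was not tested. For osteoclasts, 1 of 7 markers lay above the filter and rose, the Ctsk described above, and the summed level was 8.91 to 10.9 TPM in Con and 10.6 to 12.7 TPM in EX.

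**Figure D5:**
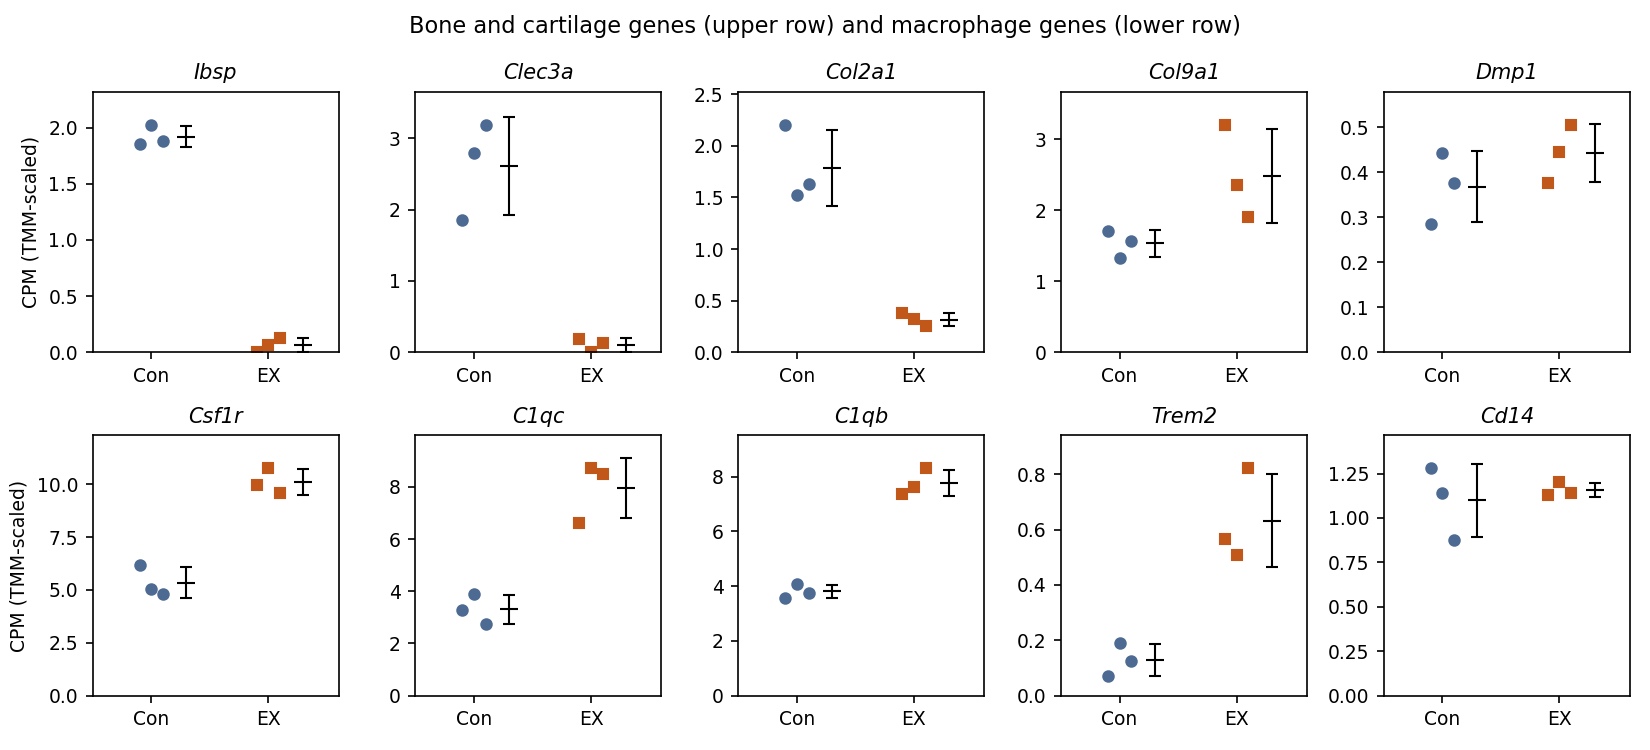
CPM (vertical axis, from 0) of the bone or cartilage genes Ibsp, Clec3a, Col2a1, Col9a1 and Dmp1 (upper row) and the macrophage genes Csf1r, C1qc, C1qb, Trem2 and Cd14 (lower row) in Con (circles) and EX (squares), 1 point per mouse, with the mean ± SD of 3 mice beside them. Ibsp, Clec3a and Col2a1 are lower in all 3 EX libraries, Col9a1 and 4 of the 5 macrophage genes are higher in all 3, and Dmp1 and Cd14 overlap.

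Connective tissue markers were mixed. Tendon markers had sums of 50.5 to 57.0 TPM in Con and 72.2 to 79.8 TPM in EX, and 3 of the 6 tested rose while none fell. They were Cilp2 (0.94), the tendon differentiation gene Tnmd (0.85) and the collagen-binding Fmod (0.79), given as log2 fold changes, of which Cilp2 met the filter only through EX, while Scx, Kera and Comp did not pass (0.05 to 0.07). Tnmd had 69, 88 and 77 counts in Con against 152, 123 and 163 in EX.

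Of the 8 fibroblast markers tested 3 passed, the fibrillar collagen genes Col1a1 (0.86), Col3a1 (0.76) and Col1a2 (0.61), all higher. The other 5 did not pass, with Pdgfra at -0.14, Dcn at -0.10, Ly6a at -0.04, Lum at 0.05 and Pi16 at 0.22, and the sum over the list was 637.2 to 670.7 TPM in Con and 657.1 to 697.4 TPM in EX, which overlapped. Col1a1 had 1252, 1333 and 1367 counts in Con against 2485, 2485 and 2489 in EX. The part of tendon or fibroblast RNA in the higher levels of Tnc, Thbs4, Sparc and the other genes that rose was not tested.

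Of the vessel markers more fell than rose. In the endothelial list 1 of 10 rose and 5 fell, with Cdh5 at -0.26 and Tie1 at -0.22, while Cldn5 was at 0.25 and lost its call without Con replicate 2 (adjusted p = 0.131). In the list of smooth muscle and pericytes 1 of 7 rose and 4 fell. The gene that rose, Acta2 (0.15, adjusted p = 0.0344), did not pass in 11 of the 16 alternatives, among them every fit that left out a library other than Con replicate 1 (adjusted p up to 0.232). Among those that fell were Pdgfrb at -0.40, Rgs5 at -0.36 and Myh11 at -0.30, all as log2 fold changes. Summed levels were 429.9 to 441.9 TPM in Con and 365.7 to 369.5 TPM in EX for endothelium.

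The transcription factor genes of muscle differentiation, Myog (0.99) and Myod1 (0.44), rose on the log2 scale, and they were 2 of the 5 satellite cell and regenerating fibre markers above the filter. The satellite cell markers Pax7 (-0.08) and Myf5 (-0.02) did not pass. Below the filter 3 more rose, Myh3 and Myh8, which encode embryonic and perinatal myosins, and Mymk, which encodes the fusion protein myomaker. Among 8 muscle fibre genes 3 rose and 1 fell, with Pvalb at 0.35, Mylpf at 0.30 and Acta1 at 0.22. Of 6 kidney and bladder epithelium markers 2 were analysed, neither above the filter. No analysed marker in any list was at 0 in all 6 libraries.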

How the data were processed

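RNA from hind leg muscle of 3 Con and 3 EX mice was sequenced as paired-end reads of 150 bp on the DNBseq platform, and the authors removed low-quality reads. The study's methods name HISAT on GRCm39, while the submitters' processing notes name GRCm38.p6, cutadapt, featureCounts and MultiQC, so the build behind the values is not settled. The table the authors deposited gives estimated counts, FPKM and TPM for each gene and library, with replicates not pooled. Between 4.18% and 4.44% of the estimated counts in a library were not whole, so reads on shared sequence may be split between copies. The counts of all 10 genes were whole. A further 6 columns of group means were not used.

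The estimated counts were rounded and tested with edgeR 4.0.16 (glmQLFit, glmQLFTest) in R 4.3.3 after TMM scaling, with Benjamini-Hochberg adjustment and a threshold of 0.05 without a fold limit. Genes averaging 1 FPKM or more across the 6 libraries were tested, and genes below that come from a fit without the filter. CPM are TMM-scaled. The study named DESeq as its own test. Each library came from a separate mouse, and n = 3 limits the precision. The common biological coefficient of variation, the spread beyond counting error estimated over all genes tested, was 0.0328. Intervals and the floor of 3 counts cover counting error only. The intervals use counts summed over the mice of a group and so leave out the spread between mice. Molecular identifiers are not named in the sources used here. The test was tried on simulated counts with known changes and the same spread for every gene. Those changes were larger than most of those called here, whose median absolute log2 fold change was 0.25. The trial thus does not cover small changes.

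The 10 genes and all lists were chosen with earlier results of these data known, so no list was tested as a set. From each list, the text names up to 3 genes with the largest log2 fold change among those past the threshold, all 10 genes of the group, the 5 genes most like Spp1, and Ibsp, Dmp1, Mepe and Dspp. Any other gene, such as Pkd2, Gdf1, Cd36, Clec3a, Col2a1, Col9a1, Trem2, Acta2, Pdgfra and Pax7, was named after its values were seen. The 16 alternatives were RLE scaling, totals without the 20 most abundant genes, no filter, a filter of 5 FPKM, DESeq2 1.42.0, limma 3.58.1 on log2(FPKM + 0.1), on log2(FPKM + 1) and on log2(TPM + 0.1), a robust prior, a replicate block and leaving out each library. Promoter windows and gene order are from RefSeq on GRCm38.p6, and no other coordinates were used.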

Additional observations from a re-analysis of the deposited data

How the results depend on the processing

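The fold changes of the 10 genes, the 36 genes named from the lists, the 5 genes most like Spp1, Acta2 and Pkd2 kept their direction under those of the 16 alternatives that tested them. That of Gdf1 did not, with values from -2.39 to 3.26 when 1 library was left out and 0.40 to 1.65 in the limma fits. Genes under the filter were refitted only without a filter and with each library left out, an alternative chosen after seeing the data, where Ibsp, Clec3a, Col2a1, Myh3, Myh8 and Mymk passed each time. The number of genes past the threshold was 1949, 1228 with DESeq2 and 1344 to 1857 when 1 library was left out. Of the 9 genes other than Spp1, 7 passed in the reported fit, 3 with the filter of 5 FPKM, where fewer of them were tested, and 4 with limma on log2(FPKM + 0.1), 4 on log2(FPKM + 1) and 4 on log2(TPM + 0.1). Sparc, Tnc, Thbs4 and Ccn2 passed in each alternative that tested them, and Postn and Ccn1 in none. Thbs2 did not pass in the 3 limma fits (adjusted p up to 0.0624). Thbs1 lost its call in 13 of 15 alternatives, with adjusted p from 0.0447 to 0.274, and Tgfbi in 11 of 16, with adjusted p from 0.0235 to 0.187. The log2 fold change of Spp1 was -1.30 with limma on log2(FPKM + 1), a scale that understates changes of low genes, and -1.96 to -1.60 when 1 library was left out.

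Of the 36 genes named from the lists, 28 passed in every alternative that tested them. The others were Fstl1, Sparcl1, Itgav, Smad4, Lats2, Ctsk, Mmp14 and Cldn5. Of the immediate early genes, 5 rose and 5 fell in the 3 limma fits and without EX replicate 2, and 4 rose and 5 fell with the filter of 5 FPKM. The share of calls that were higher in EX depended on the scaling. It was 50.8% in the reported fit, 38.0% with totals that left out the 20 most abundant genes, 28.4% with limma on log2(FPKM + 0.1), 28.5% on log2(FPKM + 1) and 16.8% on log2(TPM + 0.1), where the median log2 fold change of all genes was -0.09.

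The groups share replicate numbers, but nothing in the labels says that a number marks a shared litter or day. Deviations of same-numbered libraries correlated across genes at -0.08, -0.05 and -0.07, and no library correlated best with its own number. With a replicate block 1782 genes passed, and of the 9 genes 6 did, without Thbs1. Counts below about 10 in a library, as for Ibsp, Dmp1 and Trem2, limit what can be said of those genes.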
